A study of Mus musculus with 4 samples.

Results

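Cytosolic ribosomal protein genes were taken as the protein-coding genes of the count tables whose symbol reads Rpl, Rps or Rplp followed by a number, together with Rpsa, leaving out the ribosomal S6 kinases and named pseudogenes. This gave 87 genes of 19900 protein-coding genes. Of them, 77 make up the standard set of the mammalian ribosome by symbol, with 31 proteins of the small subunit and 46 of the large subunit, and 10 lie outside it as paralogues, retrogenes or genes that only share the name. A further 10 symbols matched the pattern but were pseudogenes in the annotation used or were not found in it, and they are described apart.

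The series holds 4 RNA-seq libraries from separately grown cultures of E14TG2a, a mouse embryonic stem cell line, which were taken to cells labelled hepatocyte-like by the A-HIC, a cocktail of hepatic inducers. All 4 libraries belong to this one group, and they are called libraries 1 to 4 after their replicate numbers. Libraries 1 to 4 held 37797816, 40154964, 29518642 and 40124479 counts. The label was checked against markers: all 10 pluripotency genes found with a transcript length were expressed, with Pou5f1 at 562 ± 102 TPM (SD, n = 4), whereas Alb stood at 1.48 ± 2.50 TPM and 3 of 10 hepatocyte genes were expressed, so the directions given here belong to the libraries labelled hepatocyte-like. TPM is the count per transcript length, scaled to a sum of 1000000 per library, and serves to compare genes, while CPM is the count scaled to the same sum and serves to compare libraries. In bulk RNA, fewer cells of a type and less RNA per cell cannot be told apart.

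The ribosome joins a small subunit, which holds the mRNA and reads its codons, to a large subunit, which forms the peptide bond. Most of its proteins are present once per ribosome, so their genes are known for being expressed at high and similar levels in growing cells such as embryonic stem cells. Their mRNAs typically begin with a C followed by an unbroken run of pyrimidines, the terminal oligopyrimidine (TOP) tract, through which mTOR signalling and Larp1 govern their translation. Ribosomal protein genes have also left many processed pseudogenes in mammalian genomes, DNA copies of the spliced mRNA whose sequence can be nearly identical to the parent.

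The start of the gene is shown first, since the TOP tract is the sequence these mRNAs are known for. RefSeq promoter sequences (GRCm38.p6) were found for 67 of the 87 genes. A run of 5 or more C or T letters that opens with C within 5 bases of the annotated start was present in 31 of the 67 (46.3%), against 21.2% of 27025 genes with a promoter sequence. It was found in 11 of 23 small subunit genes, 16 of 34 large subunit genes and 4 of 10 genes outside the standard set. Capitals below mark the pyrimidine run from the opening C nearest the annotated start. Any C or T just before that C is left unmarked. The windows below run from 12 bases before the annotated start through the first 18 bases of the transcript. They were chosen after the sequences were seen: highly expressed genes with and without a run, low-count genes with a run, and the Rps27 family beside the paralogue Rpl39l.
Rps6: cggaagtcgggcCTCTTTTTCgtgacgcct
Rpl35: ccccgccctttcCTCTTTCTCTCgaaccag
Rpl15: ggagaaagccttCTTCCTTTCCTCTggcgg
Rpl4: cttttcctgtgggagcagccgggtagagag
Rps10: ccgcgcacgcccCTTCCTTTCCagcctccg
Rps18: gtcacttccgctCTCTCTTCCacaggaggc
Rps27: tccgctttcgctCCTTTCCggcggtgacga
Rps27rt: acttatcccttgCTTTCCggcggtgacgac
Rps27l: ctcctccccgccgCCTCTatcccggaagtt
Rpl39l: ccaggcctttccggatttccggtggtcgcc
The windows lie at chr4:86857350-86857379 for Rps6, chr2:39005114-39005143 for Rpl35, chr14:18270969-18270998 for Rpl15, chr17:27635227-27635256 for Rps10, chr17:33955648-33955677 for Rps18, chr3:90213631-90213660 for Rps27 and chr9:114982722-114982751 for Rps27rt, all on the minus strand, and at chr9:64173375-64173404 for Rpl4, chr9:66946074-66946103 for Rps27l and chr16:10170216-10170245 for Rpl39l on the plus strand. Rps27 and the retrogene Rps27rt share the letters from CTTTCC onward, while Rps27l has a shorter run and Rpl39l has none that opens within 5 bases of the start.

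Levels of genes with and without the pyrimidine run overlapped widely. In the standard set, the 27 genes with a run had a median of 1044 TPM (range 11.6 to 3286) and the 30 without one a median of 1474 TPM (range 2.15 to 3599). Within 50 bases on either side of the start, the letters CCGGAAG, the core bound by Ets-family factors, were present on either strand in 14 of 67 genes (20.9%) against 5.98% of all promoters. The letters AAGATGG, read on either strand and typical of the factor Yy1, were present in 6 of 67 (8.96%) against 3.07%, and TATAAA, on the sense strand, in 5 of 67 (7.46%) against 4.05%. Of 25 listed ribosome assembly genes with a promoter sequence, 8 held CCGGAAG (32.0%) and 0 held AAGATGG or TATAAA. These are matches of letters to annotated starts, and the start sites used in these cultures were not measured.

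Ribosomal protein transcripts took a large share of these libraries. The 87 genes held 4.62%, 3.36%, 4.13% and 3.74% of all counts in libraries 1 to 4, a mean of 3.96% ± 0.540 (SD, n = 4), with the highest share in library 1 and the lowest in library 2. Because these mRNAs are short, their share of summed TPM was larger, at 12.6%, 9.93%, 11.6% and 10.8%. The standard set had a median of 1366 TPM, against 27.2 TPM for all expressed protein-coding genes, and its middle range (between the lower and upper quartile) ran from 836 to 2019 TPM. At 1 TPM or more in all libraries, 85 of the 87 genes were expressed, against 62.7% of protein-coding genes. Ribosomal protein genes made up 10 of the 20, 28 of the 50 and 52 of the 100 top protein-coding genes by mean TPM.

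**Figure D1:**
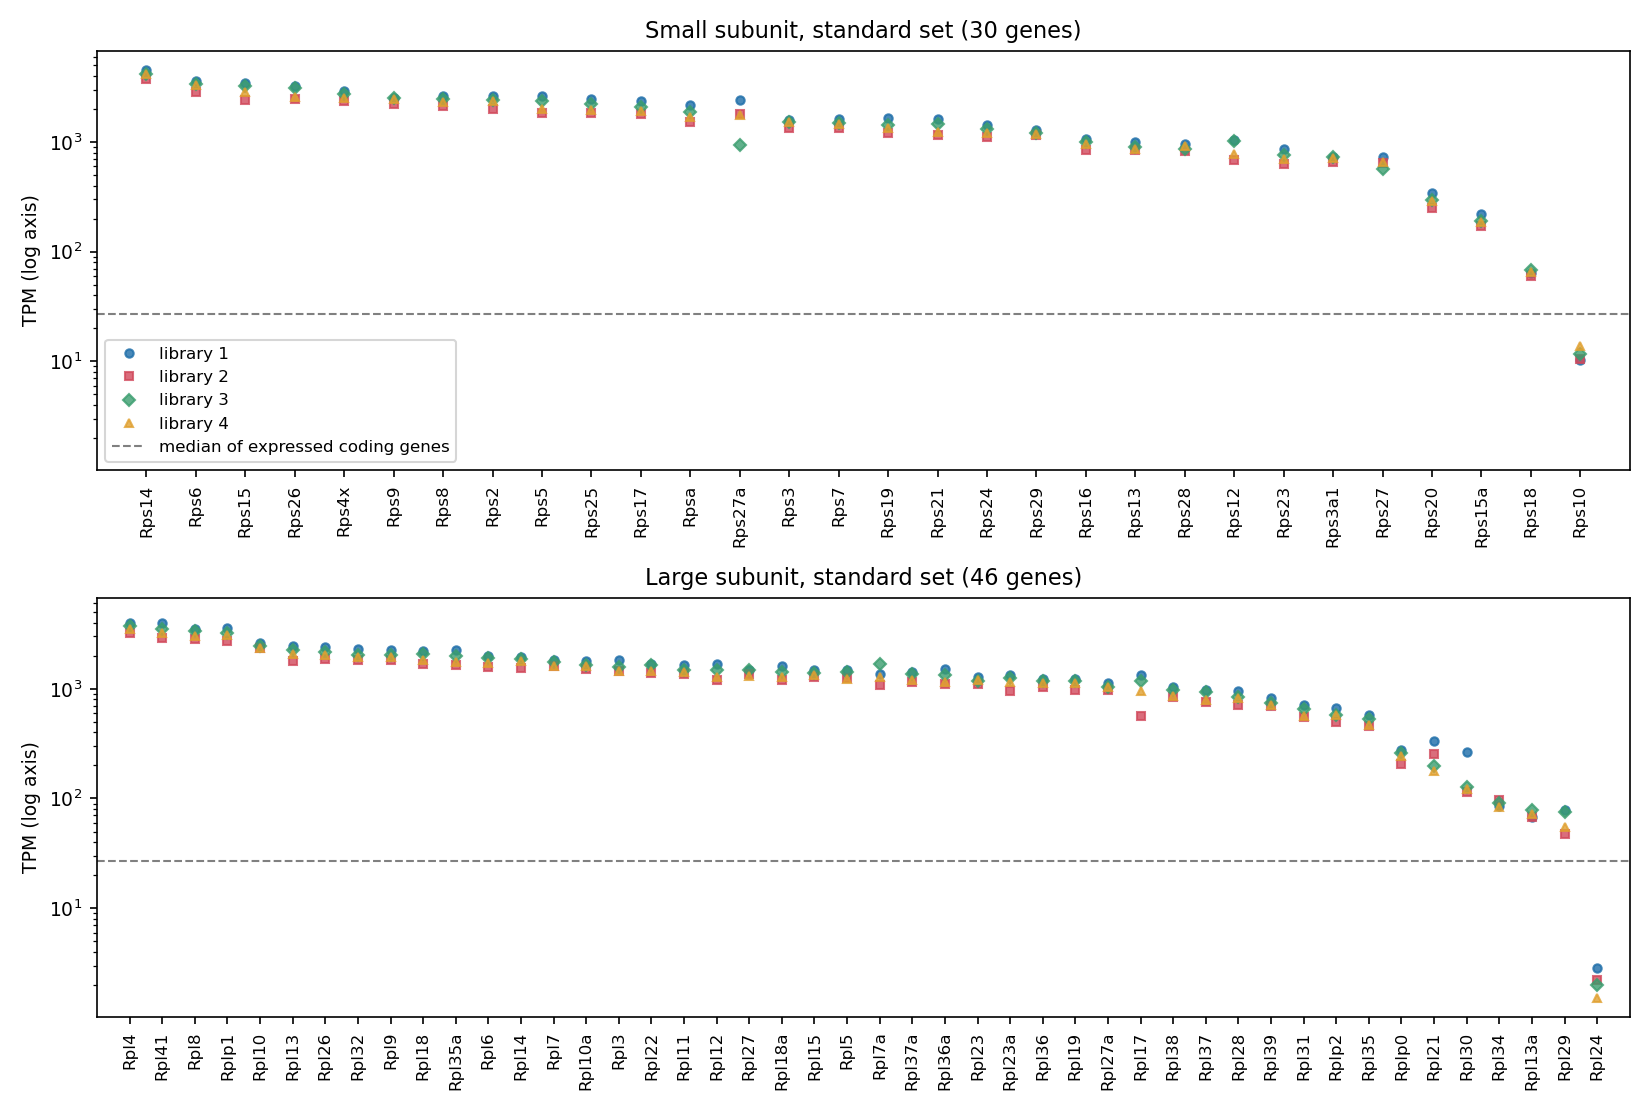
TPM (log axis) of 30 of the 31 small subunit genes (top) and the 46 large subunit genes (bottom) in each of the 4 libraries, ordered by mean; each point is 1 library, and the dashed line is the median of expressed protein-coding genes (27.2 TPM). The middle of the standard set lies between 836 and 2019 TPM (quartiles), and a short tail falls to 11.6 TPM for Rps10 and 2.15 TPM for Rpl24.

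Small subunit genes had a median of 1401 TPM. Rps14, a protein of the subunit's platform, was the highest member of all. It stood at 4547, 3771, 4139 and 4153 TPM in libraries 1 to 4, a mean of 4152 ± 317 TPM (SD, n = 4). Rps6, the ribosomal target of S6 kinase, stood at 3571, 2855, 3382 and 3336 TPM. In both genes library 1 was the highest and library 2 the lowest. Rps29, a small zinc-binding protein, was among the least variable members at 1280, 1163, 1205 and 1191 TPM. The lowest small subunit gene was Rps10, at 10.2, 10.6, 11.7 and 13.9 TPM, followed by Rps18 at 64.1, 59.6, 67.5 and 65.2 TPM. Rps15a and Rps20 stood at 193 ± 21.4 and 295 ± 38.6 TPM, but the transcripts used for their length span 5130 and 3706 bases, so these TPM values may be too low. On the CPM scale, Rps15a ranged from 353 to 496 CPM and Rps20 from 374 to 557 CPM over the libraries.

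Large subunit genes had a median of 1348 TPM and were led by Rpl4, a protein lining the exit tunnel for the nascent chain. Rpl4 stood at 3973, 3204, 3711 and 3507 TPM in libraries 1 to 4, a mean of 3599 ± 325 TPM (SD, n = 4). Rpl41, the smallest ribosomal protein, stood at 3966, 2881, 3501 and 3198 TPM and Rpl8, which lies near the peptidyl transferase centre, at 3524, 2855, 3372 and 3037 TPM. Library 1 was the highest and library 2 the lowest in all 3. The lowest large subunit genes were Rpl24 at 2.88, 2.20, 2.01 and 1.52 TPM, Rpl29 at 78.2, 47.8, 76.0 and 54.6 TPM, Rpl13a at 67.6, 67.7, 78.5 and 71.6 TPM and Rpl34 at 86.2, 96.1, 91.9 and 83.9 TPM. Summed over the standard set, large subunit genes exceeded small subunit genes by 1.30, 1.32, 1.34 and 1.30 times, a mean ratio of 1.32 ± 0.0194. The number of genes differs between the subunits, and the ratio of the median large to the median small subunit gene, taken in each library and averaged, was 0.953.

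The P stalk, the flexible arm that recruits translation factors with GTPase activity, was measured unevenly. Rplp1 stood at 3568, 2725, 3203 and 3065 TPM in libraries 1 to 4, Rplp2 at 669, 499, 576 and 578 TPM, and Rplp0, the base of the stalk, at 276, 206, 262 and 244 TPM. The pseudogenes that share sequence with Rplp0 held 6.72 times its counts, and gene and copies together stood at 1083 CPM, against 140 CPM for Rplp0 alone. The gap between the partners Rplp1 and Rplp2 depended on the length used: their means were 3140 and 580 TPM, 4982 and 428 TPM with the union of exons as length, and 656 and 234 CPM. Rpl5 and Rpl11, which carry 5S rRNA into the large subunit and can bind Mdm2, were close to each other at 1349 ± 120 and 1474 ± 121 TPM (SD, n = 4). Rpl5 shares 26.7% of its exon bases with the neighbouring gene Dipk1a, which had 265 to 484 counts.

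Ribosomal proteins whose symbols lie outside the family pattern were measured as well. Fau, the precursor of eS30, stood at 1289 ± 198 TPM (SD, n = 4), and Rack1, a scaffold on the small subunit, at 2099 ± 156 TPM. Mitochondrial ribosomal proteins, encoded by other genes, had a median of 56.3 TPM over 78 genes.

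Some members of the standard set stood beside near-identical gene copies with more counts than their own. In 7 standard genes, Rps3a1, Rps10, Rpl24, Rpl29, Rpl30, Rpl34 and Rplp0, the pseudogenes that share at least one stretch of 150 bases, the read length, held more counts than the gene itself. Rps10 had 149, 151, 130 and 203 counts in libraries 1 to 4, and the processed pseudogene Rps10-ps2 on chromosome 16 had 5619, 4070, 4056 and 5320. Rplp0 had 6169, 4508, 4441 and 5456 counts, and Gm8730 on chromosome 8 had 33514, 25513, 24188 and 31715, or 5.59 ± 0.182 times the parent (SD, n = 4). Rpl34 had 680, 742, 551 and 663 counts, and Rpl34-ps1 on chromosome 6 had 8500, 7700, 6079 and 8302. In all 3 pairs the pseudogene was above the parent in every library. These pairs come from the 7 genes picked because their copies held more counts, so this excess follows largely from that choice.

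The sequences show how close these copies are. Over the coding region, Rpl30 and Gm12191 were identical at 347 of 348 aligned bases (99.7%), Rpl34 and Rpl34-ps1 at 352 of 354 (99.4%), Rps10 and Rps10-ps2 at 491 of 496 (99.0%) with 2 gap bases, and Rplp0 and Gm8730 at 942 of 954 (98.7%). The 60 coding bases below are, for each pair, the gapless stretch with the most differences. Capitals mark bases that differ between the pair, and positions are counted from the A of the start codon, in GENCODE M21 transcripts (GRCm38).
Rplp0, coding bases 388 to 447: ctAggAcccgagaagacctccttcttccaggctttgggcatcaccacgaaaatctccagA
Gm8730: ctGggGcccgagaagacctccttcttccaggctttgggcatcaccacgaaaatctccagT
Rps10, coding bases 379 to 438: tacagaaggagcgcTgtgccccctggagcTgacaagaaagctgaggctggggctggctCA
Rps10-ps2: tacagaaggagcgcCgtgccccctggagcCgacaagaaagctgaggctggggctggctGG
Rpl34, coding bases 73 to 132: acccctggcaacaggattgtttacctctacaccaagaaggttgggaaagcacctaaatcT
Rpl34-ps1: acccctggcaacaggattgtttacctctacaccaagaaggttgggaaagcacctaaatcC
Rpl30, coding bases 37 to 96: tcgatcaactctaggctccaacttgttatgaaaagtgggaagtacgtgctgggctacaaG
Gm12191: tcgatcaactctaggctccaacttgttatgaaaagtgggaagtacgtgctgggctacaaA
Even in its most divergent stretch, each pair differed at 1 to 4 of 60 bases. How reads that align to several places were counted is not given in the sources used here, so the division of counts between these genes and their copies is uncertain, and its part in the low levels was not tested.

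**Figure D2:**
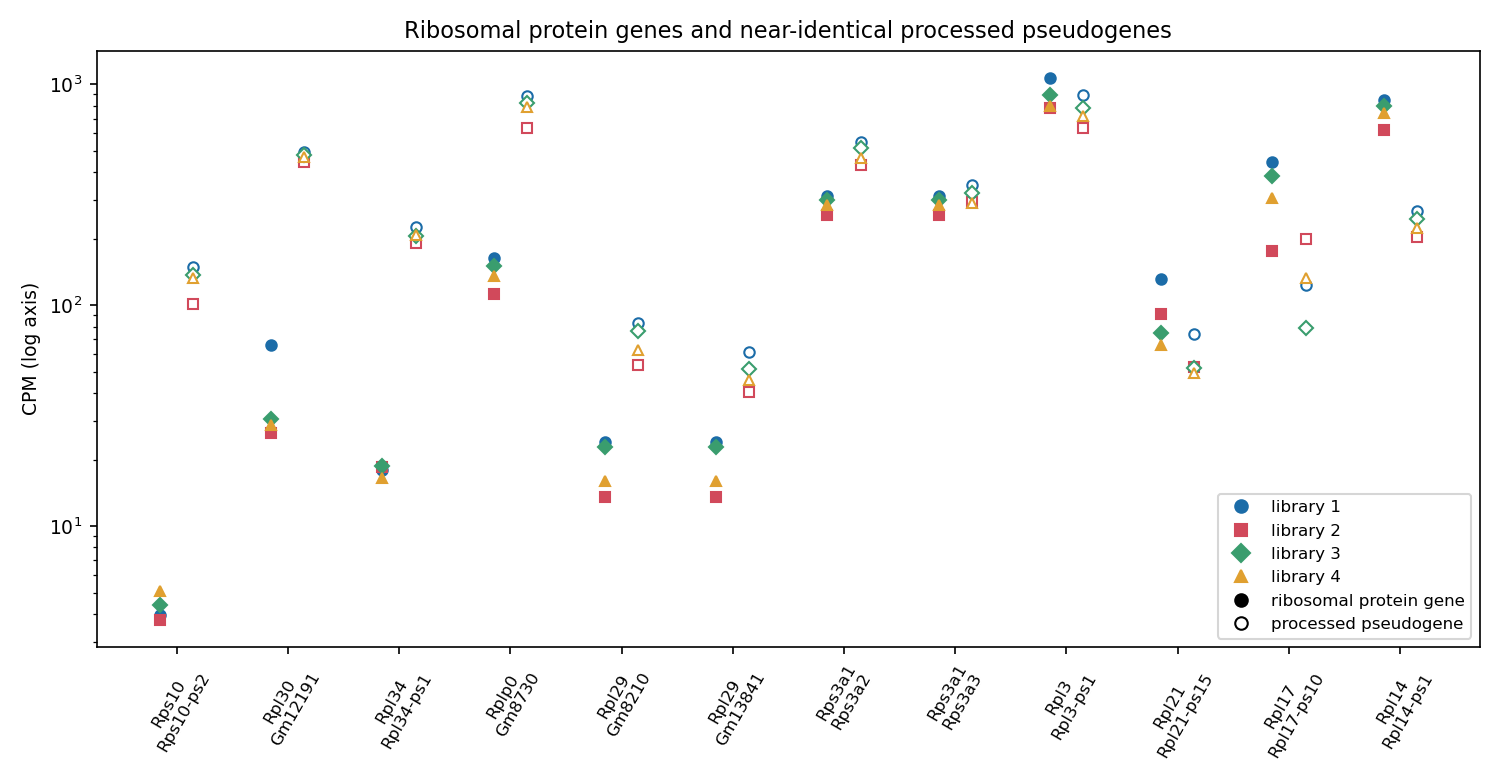
Counts scaled to library size (CPM, log axis) of ribosomal protein genes (filled) and near-identical processed pseudogenes (open) in the 4 libraries; each symbol is 1 library. For Rps10, Rpl30, Rpl34, Rplp0 and Rpl29, which were picked for copies with more counts, every open point lies above every filled point. The copy of Rpl17 is highest in library 2, where Rpl17 is lowest.

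Copies with many counts were also found beside genes of high level. Rpl3-ps1 on chromosome X, which matches Rpl3 at 99.8% of aligned coding bases, had 33903, 25475, 23094 and 28796 counts, or 0.854 ± 0.0384 times Rpl3 (SD, n = 4). The rows Rps3a2 and Rps3a3, pseudogenes in the annotation used, had 1.70 ± 0.0555 and 1.09 ± 0.0536 times the counts of Rps3a1, and Rps3a1 with all pseudogenes that share its sequence stood at 1095 ± 103 CPM. Of 322 named pseudogene rows of the family, 139 had 0 counts in every library. Together they held 0.248% ± 0.0258 of all counts, or 6.27% of the count of the ribosomal protein genes. Adding all 249 pseudogene rows that share a 150-base stretch raised the family's share of counts from 3.96% to 4.54%.

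Sharing of sequence was common in the family and was not limited to low members. The standard set had a median of 29.2% of 150-base stretches in common with another gene. The 9 genes with none, among them Rpl8 and Rps15 (the latter chosen after its values were seen), had a median of 1548 TPM, and the 21 genes with more than 50% had a median of 1349 TPM and ranged from 2.15 to 3286 TPM. Across the 77 genes, Spearman's rho between mean TPM and the shared percentage was -0.13, a description over genes that are not independent. Rpl24 shared 72.5% of its stretches with 4 other genes. It shared 47.0% of its exon bases with 1 of them, the overlapping transcript Gm28037, which had 0 counts. Rpl24 itself had 32, 24, 17 and 17 counts, and with its pseudogenes it reached 5.65 ± 1.08 CPM. Rpl13a shared 52.7% of its stretches with 1 other gene and 35.4% of its exon bases with Gm45713, which also had 0 counts. No pseudogene shared a 150-base stretch with Rpl13a, and those that did with Rps18 had a mean of 82 counts, 0.149 times the count of Rps18.

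Nearly all ribosomal protein genes moved together between the cultures. In CPM, 79 of 87 were highest in library 1, against 33.2% of protein-coding genes with a mean of 1 CPM or more, and 78 were lowest in library 2, against 39.1%. The order library 1, 3, 4, 2 from high to low was shared by 70 of 87 genes, against 17.3% of those protein-coding genes. This order is also that of the family's own share of counts. Of the 84 ribosomal protein genes that reached 1 CPM, 78 were highest in library 1, 77 lowest in library 2 and 70 in this order. The standard set deviated from the mean of the other 3 libraries by a median log2 difference of 0.30 in library 1, -0.30 in library 2, 0.10 in library 3 and -0.10 in library 4. For all protein-coding genes at 1 CPM or more these medians were 0.03, -0.06, 0.03 and -0.01. With TMM scaling, 72 of 77 standard genes were still highest in library 1 and 67 lowest in library 2, against 28.3% and 30.2% of protein-coding genes.

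**Figure D3:**
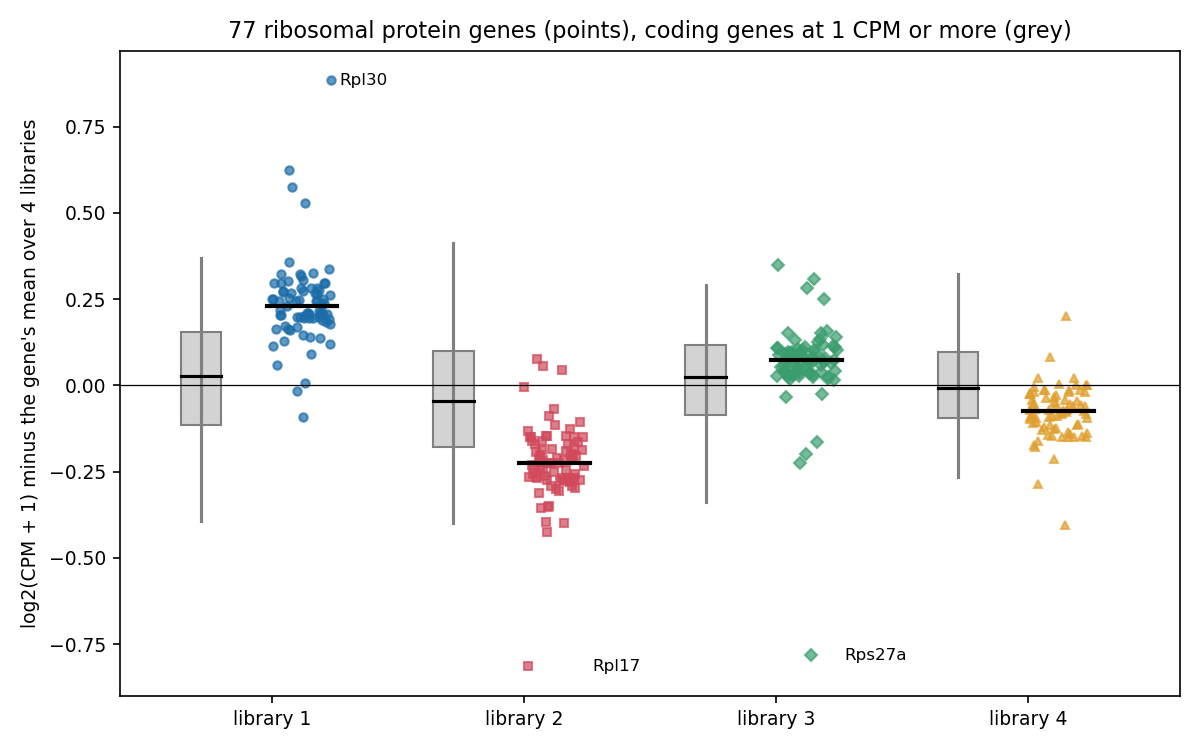
Deviation of log2(CPM + 1) from the gene's mean over the 4 libraries, for the 77 genes of the standard set (points, 1 per gene, with a bar at their median) and for protein-coding genes at 1 CPM or more (box from the 25th to the 75th percentile, line from the 5th to the 95th, bar at the median). The points lie mostly above 0 in libraries 1 and 3 and below 0 in libraries 2 and 4, and Rpl30, Rpl17 and Rps27a stand apart.

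The test of each library against the remaining 3 had little power: on simulated data for library 1, 17 of 99 genes changed by a fold of 2 were recovered. That fold is larger than the median log2 difference of 0.30 of the standard set in library 1, a size that was not simulated. The simulation gave every gene the same spread between libraries, so it does not give the recovery of ribosomal protein genes in particular. The quasi-likelihood test of edgeR set each library against the remaining 3 over 17398 genes, with p-values adjusted after Benjamini and Hochberg, and assumes that the lone library varies like the others. No gene was called in any of the 4 comparisons (0% of those tested), ribosomal protein genes included, while 926, 1284, 274 and 269 genes had an unadjusted p under 0.05 in libraries 1 to 4 and DESeq2 called 8, 69, 3 and 3. At an unadjusted p under 0.05, 12 ribosomal protein genes were higher in library 1 (2.31% of all genes tested were) and 9 were lower in library 2 (2.70% of all). In library 3, 1 was lower (0.960% of all), and in library 4 there was none. DESeq2 called Rpl30 in library 1 (0.0469% of 17060 genes called) and Rpl17 in library 2 (0.492% of 14025), and no ribosomal protein gene in libraries 3 and 4. The counts of calls depended on single libraries. With library 3 left out, edgeR called 22 ribosomal protein genes higher in library 1, when 12.4% of all genes tested were called in either direction. With library 4 left out it called 25 lower in library 2, when 14.4% were.

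For marker genes, the order and the highest library were again taken in CPM, and summed levels in TPM. The order library 1, 3, 4, 2 was shared by 5 of 11 pluripotency genes at 1 CPM or more, against 17.3% of protein-coding genes. It was shared by 0 of the parietal endoderm, hepatocyte and fibroblast genes. Summed pluripotency genes stood at 5283, 2952, 4810 and 3661 TPM in libraries 1 to 4, high where ribosomal protein genes were high. Of the 11 genes, 7 were highest in library 1, against 33.2% of protein-coding genes, and Sox2, the lowest, stood at 83.9 ± 14.1 TPM. Summed parietal endoderm genes ran the other way, at 3390, 10003, 4072 and 7774 TPM, with 9 of 10 highest in library 2, against 23.8% of protein-coding genes, and Sparc, the highest, at 1274, 3365, 1397 and 2422 TPM. Fibroblast genes summed to 2118, 4141, 1883 and 3064 TPM, and hepatocyte genes to 9.50, 71.9, 13.4 and 28.9 TPM, with Cyp7a1 at 0 counts in every library. With 4 libraries in 1 group, the part of cell makeup in the ribosomal protein order was not tested.

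The spread of the standard set between cultures was above that of protein-coding genes at 1 CPM or more in CPM and close to it with TMM scaling. The median SD of log2(CPM + 1) over the 4 libraries was 0.202 in the standard set, against 0.171 for protein-coding genes at 1 CPM or more and 0.121 for those at 100 CPM or more. With TMM scaling it was 0.159 against 0.167 for those at 1 CPM or more, and it was not computed for those at 100 CPM or more. An SD under 0.3 was found for 71 of 77 genes (92.2%), against 80.5% of protein-coding genes at 1 CPM or more, which include many of lower count. The smallest SDs belonged to Rpl34 (0.0756), Rps18 (0.107) and Rps29 (0.108). Rpl34 lay between 16.5 and 18.7 CPM with its highest value in library 3.

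A few members differed from the family in the size of their range or in their order. Rpl30 and Rpl17 kept the common order with a wider range, while Rps27a and Rpl21 left it. Rpl30, which has a regulatory role in its own splicing in yeast and binds rRNA in the large subunit, stood at 65.8, 26.4, 30.5 and 28.7 CPM in libraries 1 to 4. Library 1 stood above the others by a log2 difference of 1.15 ± 0.145 (SE; edgeR, adjusted p = 0.723), with the other 3 close together. Its copy Gm12191 had no step of this size, at 495, 446, 480 and 468 CPM, but was also highest in library 1 and lowest in library 2. Gene and copies together stood at 566, 479, 517 and 502 CPM, with a log2 SD of 0.102, while Rpl30 alone had 0.596. Gm12191 held 7.52 to 16.9 times the counts of Rpl30, so the spread of the sum mostly reflects the copy and says little about Rpl30.

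Rpl17, a protein at the mouth of the exit tunnel, stood at 447, 176, 383 and 305 CPM. It was lowest in library 2, by a log2 difference of -1.03 ± 0.204 (SE; edgeR, adjusted p = 0.626). The processed pseudogene Rpl17-ps10, 99.3% identical over the coding region, had 4647, 8016, 2331 and 5306 counts, with its highest value in library 2. The sum of Rpl17 and its pseudogenes, 685, 476, 573 and 547 CPM, had an SD of 0.217 against 0.588 for Rpl17 alone, near the family median.

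Rps27a, which encodes ubiquitin fused to eS31, was lowest in library 3. Its levels were 668, 456, 251 and 458 CPM, a log2 difference of -1.11 ± 0.241 for library 3 (SE; edgeR, adjusted p = 1.00). The pseudogene Rps27a-ps2, which shares 46.1% of the 150-base stretches of Rps27a, had 571, 428, 292 and 349 counts, not scaled for depth. Library 3 also had the smallest total, 29518642 counts, so its low count of Rps27a-ps2 cannot be set beside the CPM of Rps27a. Rpl21 fell outside the common order as well, at 132, 91.5, 75.1 and 66.2 CPM, with library 4 the lowest by a log2 difference of -0.56 ± 0.311 (SE; edgeR, adjusted p = 1.00). Rpl29 followed the order with a wider range, at 24.1, 13.6, 22.8 and 15.9 CPM.

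Paralogues outside the standard set were mostly far below their standard partners, with 1 exception that held when the partner was taken alone. Rps27l, a p53-responsive paralogue of Rps27, stood at 876, 730, 835 and 843 TPM, and Rps27 at 734, 644, 571 and 660 TPM, a log2 ratio of 0.33 ± 0.16 (SD, n = 4) with Rps27l higher in every library. Rps27rt, a retrogene with a coding region identical to that of Rps27 at all 255 bases, stood at 158, 104, 197 and 155 TPM. Rps27 shares 98.0% of its 150-base stretches with Rps27rt, so the division of counts between Rps27 and Rps27rt is uncertain, which bears on the ratio of Rps27l to Rps27. Rps27 alone stood at 110, 89.0, 83.3 and 93.4 CPM, and with Rps27rt added at 136, 105, 114 and 117 CPM. With the TPM of Rps27rt added to that of Rps27, Rps27l was no longer higher in every library. With the union of exons as the length, the log2 ratio of Rps27l to Rps27 alone was 1.22.

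The coding sequence of Rps27l can be told from that of Rps27, as the stretch with the most differences shows, with capitals at bases that differ. Over the coding region they were identical at 194 of 255 bases (76.1%), and Rps27l shares no 150-base stretch with another gene.
Rps27, coding bases 4 to 63: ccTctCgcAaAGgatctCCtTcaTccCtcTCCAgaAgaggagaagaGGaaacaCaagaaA
Rps27l: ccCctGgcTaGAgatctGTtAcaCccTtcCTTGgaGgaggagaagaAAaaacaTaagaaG
Rpl39l, a paralogue of Rpl39 known from the testis and from stem cells, was identical to Rpl39 at 133 of 156 coding bases (85.3%).
Rpl39, coding bases 94 to 153: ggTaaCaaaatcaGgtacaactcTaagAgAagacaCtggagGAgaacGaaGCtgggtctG
Rpl39l: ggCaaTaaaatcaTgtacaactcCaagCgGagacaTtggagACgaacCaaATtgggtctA
Rpl39l stood at 46.1, 20.6, 44.8 and 21.3 TPM, high in libraries 1 and 3 and low in 2 and 4, and it had the largest SD of all 87 genes (0.630 on the log2 scale). Rpl39 stood at 816, 704, 743 and 711 TPM, so that Rpl39l was at a log2 ratio of -4.58 ± 0.56 to it (SD, n = 4).

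**Figure D4:**
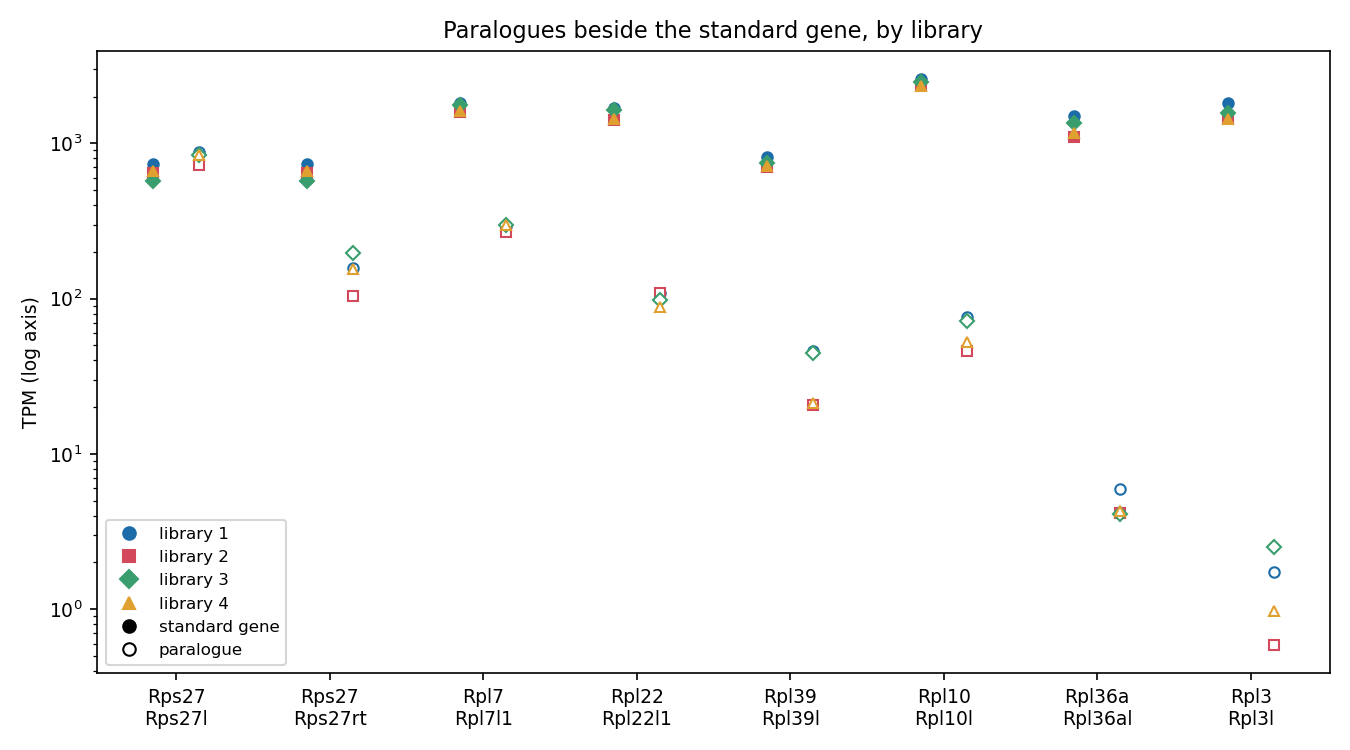
TPM (log axis) of paralogues (open) beside the standard gene of the same family (filled) in the 4 libraries; each symbol is 1 library. Rps27l lies above Rps27, taken without Rps27rt, within each library. The other paralogues lie below their partner in every library, and Rpl39l splits into 2 high and 2 low libraries.

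The other paralogues kept low levels. Rpl7l1, which works in ribosome assembly, stood at 292, 268, 297 and 297 TPM, 17.0% of Rpl7, and was among the steadiest members. Rpl22l1 stood at 108, 109, 98.0 and 87.8 TPM, 6.54% of Rpl22, and did not follow the common order. Rpl10l, a retrogene of Rpl10 known for its role in spermatogenesis, stood at 75.9, 45.8, 71.4 and 52.3 TPM, 2.50% of Rpl10. Rpl36al had 51, 35, 27 and 37 counts, and 4.60 ± 0.867 TPM. Rpl3l, the muscle paralogue of Rpl3, had 39, 13, 43 and 22 counts, a log2 ratio of -10.16 ± 0.76 to Rpl3.

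The remaining pair outside the standard set has no partner in these ratios. Rps19bp1, an Rps19-binding protein that shares only the name, stood at 104, 83.9, 104 and 85.6 TPM, and Rps23rg1, a retrogene of Rps23, had 21, 44, 35 and 30 counts, or 1.33 ± 0.456 TPM. Rps23rg1 was 1 of 2 members, with Rpl3l, that missed 1 TPM in some library. No member had 3 counts or fewer in all libraries. Of the matching symbols that are no members, Rps4l had 7481, 5238, 5484 and 6250 counts, 16.1% of Rps4x per length. Rpl37rt, Rpl6l and Rpl35rt had means of 45.5, 33.0 and 15.7 CPM, Rpl27rt had 10 to 29 counts, and Rpl32l, Rps12l1 and Rplp1rt had 0 in every library.

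Other genes of the pathway were described by the same order of libraries, taken gene by gene in CPM, while summed levels are in TPM. Of 15 translation factors and other genes listed for their known TOP mRNAs, 9 had a promoter sequence and 4 of these 9 held the pyrimidine run (44.4%). Of the 15, 7 were highest in library 1 and 4 had the order 1, 3, 4, 2, against 33.2% and 17.3% of protein-coding genes. Their summed level was 34826, 33658, 35007 and 33886 TPM in libraries 1 to 4. Eef1a1, the elongation factor that brings aminoacyl-tRNA, led them at 13372 ± 489 TPM (SD, n = 4), and Eif3f was lowest at 240 ± 19.6 TPM. Their log2 SD had a median of 0.110, and that of the standard set 0.202. The large subunit genes summed to 70544, 55695, 65355 and 60114 TPM and the small subunit genes to 54145, 42217, 48693 and 46248 TPM in the same libraries. This contrast between the lists is a description and was not tested.

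Ribosome assembly genes were expressed throughout. All 32 listed were above 1 TPM in every library, from Npm1 at 3381 ± 265 TPM (SD, n = 4) to Rrs1 at 34.6, 36.9, 36.7 and 35.9 TPM. In CPM, 15 of the 32 were highest in library 1 and 11 had the order 1, 3, 4, 2, against 33.2% and 17.3% of protein-coding genes. Their summed level was 9458, 9191, 9867 and 8909 TPM. RNA polymerase I genes, which transcribe rRNA, ranged from Taf1d at 310 ± 42.9 TPM to Taf1c, which was lowest in library 2 at 13.7 TPM. Genes of mTOR signalling and TOP control ranged from Eif4ebp2 at 151 ± 6.27 TPM to Mlst8 at 9.75 ± 1.11 TPM. In CPM, 5 of these 17 were highest in library 1 and 9 lowest in it, against 33.2% and 25.9% of protein-coding genes. As in the whole table, none of these genes passed edgeR's adjusted threshold in any library.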

How the data were processed

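RNA-seq counts per gene were deposited by the authors, 1 table for each of 4 libraries. Per the submitters' processing notes, STAR, featureCounts and GRCm39 (mm39) were used. Versions, annotation release, counting options and the handling of reads with several alignments were not given in the sources used here. Library totals were 37797816, 40154964, 29518642 and 40124479, at which 3 counts equal 0.0794, 0.0747, 0.102 and 0.0748 CPM. Even numbers made up 60.0% to 62.6% of the deposited counts from 1 to 8.

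Gene types, lengths and shared sequence were taken from GENCODE M21 transcripts (GRCm38). Of 78028 rows, 48779 matched (48148 by symbol, 626 by an older or newer symbol, 5 by identifier), holding 98.7% to 98.9% of the counts. TPM used the principal coding transcript's length. Logarithms used log2(CPM + 1) and, for ratios, log2(TPM + 0.1). The quasi-likelihood test of edgeR, after its filter on low counts, set each library against the remaining 3, with Benjamini-Hochberg adjustment at 0.05. The p-values and SDs measure the spread between these cultures only. Each SE given for edgeR was derived as the absolute log2 difference divided by the square root of the test's F statistic. On simulated data (library 1 against the other 3, 17160 genes), the test recovered 17 of 99 genes changed by a fold of 2 and 87 of 93 changed by a fold of 4, with 3 false calls.

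The genes named were the 5 highest and 5 lowest of the standard set by mean TPM, all outside it, the 5 largest and 3 smallest SDs, the P stalk and 5S-binding proteins, Rps27a, the smallest adjusted p per library and the highest and lowest of each list, where reported. Gene copies, overlapping genes, Rpl15, Rpl35, Rps15a, Rps20, Alb, Pou5f1 and further names were chosen after their values were seen. The members and lists were chosen with earlier results of these data known. Protein features were not used here, and the values of 2 genes are not reported here. Alternatives were DESeq2, other filters, scalings, lengths and pseudocounts, and leaving out each library. R 4.3.3, edgeR 4.0.16, DESeq2 1.42.0, Biopython 1.88, Python 3.11.15, SciPy 1.17.1, pandas 2.3.3, matplotlib 3.10.9 and numpy 2.4.6 were used.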

Additional observations from a re-analysis of the deposited data

Results flagged for a closer look

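In 98 sets of 4 library values, the highest or lowest library stood apart from the rest by Dixon's criterion in 2, where chance gives about 1 in 20. Rpl30 stood at 65.771 CPM in library 1, with the others at 26.4, 30.5 and 28.7 CPM. Rpl36al stood at 1.3493 CPM in library 1, from 51 counts, with the others at 0.872, 0.915 and 0.922 CPM.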

How the results depend on the processing

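The number of ribosomal protein genes called depended on the setting. Against 0 by edgeR, DESeq2 called 1 in library 1 and 1 in library 2, and without a filter on low counts edgeR called 3 in library 1 and 1 in library 2. Leaving out 1 library at a time gave 0 to 22 calls in library 1 (22 without library 3), 0 to 25 in library 2 (25 without library 4), 0 to 6 in library 3 (6 without library 1) and 0 to 3 in library 4 (3 without library 2). Calls over all genes tested, in either direction, rose in the same fits. They reached 12.4% in library 1 without library 3 and 14.4% in library 2 without library 4. They reached 7.35% in library 3 without library 1 and 7.8% in library 4 without library 2. The 6 and 3 calls among 87 members in libraries 3 and 4 thus do not set the family apart. Without the filter, 0.836% of all genes were called in library 1 and 1.19% in library 2. The median TPM of the standard set, 1366, was 894 with the union of exons as length and 1306.9 to 1419.6 with a library left out. The share of counts was 4.54% with all sequence-sharing pseudogenes added, against 3.96%, and 3.74% to 4.16% with a library left out. The median SD, 0.202, ranged from 0.154 (without library 2) to 0.232. The ratio of large to small subunit sums, 1.32, was 0.953 as a ratio of medians, 1.42 with the union of exons, and 1.31 to 1.32 with a library left out. The union of exons and the added pseudogenes were chosen after seeing the data. The causes of these shifts were not tested. No paired analysis was possible because there is 1 group.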
